A study of Mus musculus with 31 samples.

Results

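The genes described here are 38 targets of the hypoxia response that lie outside glycolysis and glycogen metabolism. They were looked up by symbol in 3 tables of gene counts from mouse pancreatic cancer cells. All 38 had a row in each table, of 55487 genes in the table of conditioned media, 56980 in the table of 2D and 3D cultures and 56941 in the table of rescued cells. The cells were Panc02, an established murine pancreatic adenocarcinoma line, sequenced as 31 libraries of stranded total RNA. The cell line labels of the 10 rescue libraries each carry another Panc number, whereas the study's methods name Panc02, and these libraries were treated as Panc02 here. In the first experiment, WT spheroids in Matrigel were grown in control medium (Ctrl), in medium conditioned by unstimulated macrophages (M0-CM) or in medium conditioned by macrophages stimulated with IFNγ and lipopolysaccharide (M1-CM), with 3 libraries each. In the second experiment, WT cells and Cxcl5-/- cells, which had been edited with CRISPR/Cas9 in the gene for the chemokine CXCL5, were cultured in plain medium in 2D or as 3D spheroids, with 3 libraries per group. In the rescue experiment, all groups were 3D-cultured: WT and Cxcl5-/- cells with 2 libraries each, and Cxcl5-/- cells that overexpressed a mutant, stabilised Hif1α (Hif1αOE Cxcl5-/-) or Myc (MycOE Cxcl5-/-) from a retroviral vector, with 3 libraries each. Whether the knockout line was a single clone is not given in the sources used here, and the labels do not say whether libraries of a group came from separate cultures, so the p-values measure the spread between these libraries.

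In cells with enough oxygen, prolyl hydroxylases mark the HIF alpha subunits for destruction. When oxygen falls, HIF1α is kept, pairs with ARNT and binds short DNA motifs, called hypoxia response elements, near its target genes. Many targets encode glycolytic enzymes. The genes treated here cover the other arms of the programme. Some encode mitochondrial proteins that trigger mitophagy or tune respiration, or transcription factors that feed back on the response. Others encode chromatin enzymes, of which the demethylases depend on oxygen, or restrain growth signalling. Further ones serve the oxidative folding of secreted proteins, lipid storage or the cell surface. Solid tumors, pancreatic cancers among them, commonly hold hypoxic regions.

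The promoters of the members were read from RefSeq (GRCm38.p6), which held 1 or more for 32 of them. Each was searched over the 250 bases before the transcription start for the core of the hypoxia response element, ACGTG or GCGTG, on both strands. A core was found for 29 of the 32 members (90.6%), against 47.1% of 17491 protein-coding genes. Counted per promoter, 33 of 49 member promoters (67.3%) held it, against 44.0% of the promoters of protein-coding genes. The palindrome CACGTG, which contains ACGTG on both strands and is also the core of the E-box read by Myc and by the factors of Bhlhe40 and Bhlhe41, was found for 25.0% of the members and 7.61% of protein-coding genes. Hdac9, Nfil3 and Mif had no core in this window. A match is a description of letters, not evidence of binding. The 6 promoters below belong to members on which the comparisons turned: 4 that 3D culture raised and the knockout lowered, Bhlhe41, which was higher in knockout spheroids where most members were lower, and Gja1, which fell below its level in 2D culture there. Capitals mark the core on either strand, so that CACGT and CACGC are cores read on the opposite strand.
Bnip3, chr7:138909507-138909756, minus strand: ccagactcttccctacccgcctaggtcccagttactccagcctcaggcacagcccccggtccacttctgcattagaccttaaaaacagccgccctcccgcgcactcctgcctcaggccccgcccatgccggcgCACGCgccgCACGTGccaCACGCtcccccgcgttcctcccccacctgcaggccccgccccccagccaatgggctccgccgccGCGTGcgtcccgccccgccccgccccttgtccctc
Ankrd37, chr8:45999851-46000100, minus strand: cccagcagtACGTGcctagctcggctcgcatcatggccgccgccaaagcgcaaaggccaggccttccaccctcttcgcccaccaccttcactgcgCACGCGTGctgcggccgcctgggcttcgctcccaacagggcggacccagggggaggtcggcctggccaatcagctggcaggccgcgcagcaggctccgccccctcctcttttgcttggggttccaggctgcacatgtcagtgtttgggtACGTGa
Ero1l, chr14:45318573-45318822, minus strand: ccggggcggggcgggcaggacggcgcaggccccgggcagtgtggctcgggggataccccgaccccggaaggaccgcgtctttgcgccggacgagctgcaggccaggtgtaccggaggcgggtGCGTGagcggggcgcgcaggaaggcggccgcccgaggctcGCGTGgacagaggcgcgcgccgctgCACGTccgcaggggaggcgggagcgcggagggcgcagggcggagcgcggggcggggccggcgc
Hilpda, chr6:29272376-29272625, plus strand: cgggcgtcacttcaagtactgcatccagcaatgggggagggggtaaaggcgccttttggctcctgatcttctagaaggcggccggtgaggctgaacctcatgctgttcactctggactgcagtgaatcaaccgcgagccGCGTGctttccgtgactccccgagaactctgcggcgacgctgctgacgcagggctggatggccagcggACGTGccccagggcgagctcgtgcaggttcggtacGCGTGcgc
Bhlhe41, chr6:145865421-145865670, minus strand: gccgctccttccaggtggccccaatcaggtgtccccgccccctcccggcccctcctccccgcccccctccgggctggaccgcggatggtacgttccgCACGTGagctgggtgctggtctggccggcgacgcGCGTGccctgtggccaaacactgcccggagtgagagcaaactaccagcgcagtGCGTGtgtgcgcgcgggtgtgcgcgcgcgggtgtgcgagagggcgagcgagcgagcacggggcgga
Gja1, chr10:56377050-56377299, plus strand: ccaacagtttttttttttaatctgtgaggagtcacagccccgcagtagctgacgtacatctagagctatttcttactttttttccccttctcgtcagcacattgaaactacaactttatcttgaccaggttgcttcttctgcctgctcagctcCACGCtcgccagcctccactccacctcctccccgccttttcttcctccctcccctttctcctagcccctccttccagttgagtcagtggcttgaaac
Bnip3 held 5 cores by this search, Ankrd37 and Bhlhe41 4 each, Ero1l and Hilpda 3 each and Gja1 1. The CACGTG of Bnip3 and that of Bhlhe41 were each counted once per strand, so these numbers exceed those of separate sites. RefSeq holds 2 promoters of Hilpda, of which the one with cores is shown; the other, chr6:29272238-29272487, held 0.

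The libraries held 41542533 to 78498230 counts each, and levels are given as CPM, the count of a gene scaled to the TMM-adjusted size of its library within a table. The Cxcl5 transcript, which a small edit need not remove, did not separate the genotypes in the direction of the label in the 3D culture of the second experiment. The mean of the 3D WT libraries was 27.0 ± 2.17 CPM, and that of the libraries labelled 3D Cxcl5-/- was 50.6 ± 13.1 CPM (both ± SD, n = 3), which differed by 0.91 ± 0.14 on the log2 scale (adjusted p = 0.000173). It was lower in the rescue experiment, at 38.4 CPM in Cxcl5-/- and 66.0 CPM in WT cells. The study reports that the knockout was checked by an immunoblot for CXCL5. It also reports, by qRT-PCR and western blotting, that the knockout blocked the rise of Hif1a and Myc in 3D culture. Hif1a read 139 CPM in rescue Cxcl5-/-, 266 CPM in Hif1αOE Cxcl5-/-, 258 CPM in MycOE Cxcl5-/- and 314 CPM in WT libraries. It was thus higher in the Hif1αOE line than in its parent (log2 fold change 0.94 ± 0.10), but each Hif1αOE library lay below both WT libraries (-0.24 ± 0.10, adjusted p = 0.0999), and the overexpressing lines overlapped (MycOE against Hif1αOE -0.04 ± 0.09, adjusted p = 0.826). Myc read 21.1 CPM in Cxcl5-/- and 490 CPM in MycOE Cxcl5-/-. Of the epithelial markers, Krt8 and Krt18 were present in each group, while Epcam and Cdh1 were at or near 0. The 7 macrophage markers summed to at most 26.1 CPM in any library, most of it from Lyz2 and Cd68. The rescue WT libraries stood apart: they had 43037 and 43048 genes with at least 1 count, against 26886 to 31338 in the other rescue libraries, and their 3 endothelial markers summed to 1.65 to 3.17 CPM against at most 0.979 CPM elsewhere in that table. The part of these differences in the results below was not tested.

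3D culture raised most of the programme in WT cells. The comparison asks how growth as a spheroid changes these genes in unedited cells. At an adjusted p under 0.05 in edgeR's quasi-likelihood test with Benjamini-Hochberg adjustment, 33 of 37 tested members were higher in the 3D WT libraries and 1 was lower, where 22.2% of the 21367 genes tested were higher and 22.0% were lower. The median log2 fold change was 1.76 over the members and 0.002 over all genes. Together the members took 0.303% to 0.345% of all counts in the 2D libraries of both genotypes and 0.939% to 1.03% in the 3D WT libraries. Ak4, a mitochondrial adenylate kinase, was too low to test, with 0 counts in each 2D library and 7, 0 and 0 counts in 3D WT. Marker genes moved with the culture: the 5 epithelial markers summed to 536 to 586 CPM in 2D WT and 839 to 1083 CPM in 3D WT (3 of 3 tested rose), the 5 mesenchymal markers to 2829 to 3171 and 3616 to 4170 CPM (3 of 5 rose and 1 fell), and the 7 macrophage markers to 1.9 to 2.72 and 7.81 to 9.2 CPM (4 of 5 tested rose), with Adgre1 at 0 in both. The 3 endothelial markers, too low to test in this table, summed to at most 0.562 CPM. Of 10 genes of the integrated stress response 7 rose and 0 fell, and of 8 immediate early genes 7 rose and 0 fell. Their part in the result was not tested.

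Among members above 1 CPM in both cultures, the largest rise was that of Ero1l, the oxidase of the endoplasmic reticulum that drives disulfide bond formation. It read 95.2, 96.2 and 87.2 CPM in 2D WT and 2602, 2359 and 2740 CPM in 3D WT. The log2 fold change was 4.79 ± 0.11 (SE here and below), and no 3D value came near a 2D value. Ankrd37, a small ankyrin-repeat protein, rose by 4.71 ± 0.12 on the log2 scale, from 3.44 to 3.56 CPM to 87.0 to 96.7 CPM. Ndrg1, a stress-induced restraint on growth and metastasis, read 70.3, 67.7 and 73.4 CPM in 2D WT and 1863, 1580 and 1645 CPM in 3D WT (log2 fold change 4.59 ± 0.09). Of the mitochondrial genes, Bnip3, a mitophagy receptor of the outer membrane, went from 77.6, 79.7 and 77.5 CPM to 1158, 1078 and 1183 CPM (3.86 ± 0.12). Its relative Bnip3l rose by 2.41 ± 0.09, Fam162a by 2.46 ± 0.09 and Higd1a, a modulator of the respiratory chain, by 2.19 ± 0.12, so that all 4 tested genes of that group rose.

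All 11 transcription factors and nuclear feedback genes rose, with a median log2 fold change of 1.36. Bhlhe40, a repressor tied to the circadian clock, rose by 2.42 ± 0.11 and its paralog Bhlhe41 by 1.10 ± 0.14. Tiparp, a mono-ADP-ribosyltransferase, rose by 1.89 ± 0.09. The smallest rise was that of the zinc-finger factor Klf6, at 0.19 ± 0.07 (adjusted p = 0.0463), whose call was lost without any of 6 libraries in turn (2D Cxcl5-/- replicates 1 and 3, 2D WT replicates 2 and 3, 3D Cxcl5-/- replicate 2 and 3D WT replicate 3, with values of 0.16 to 0.20) and whose sign turned with scaling by library totals (-0.03). All 5 restraints on growth and signalling rose too. Ccng2, an unconventional cyclin linked to cell cycle arrest, rose by 2.34 ± 0.07 and Ddit4, an inhibitor of mTOR signalling, by 2.18 ± 0.10, while Errfi1, an inhibitor of the EGF receptor, rose by only 0.52 ± 0.07.

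Among the chromatin and hydroxylase enzymes, the demethylases Kdm3a (1.61 ± 0.08) and Kdm4b (1.89 ± 0.13) and the hydroxylase Jmjd6 (0.92 ± 0.11) rose, and Kdm4c did not pass the test (0.03 ± 0.08). Jmjd6 shares 173 exon bases with Gm27401 on the same strand, so its counts are uncertain here and in the other comparisons. Hdac9 also rose, but from 10 to 12 counts per 2D WT library to 96 to 147 counts. The stanniocalcins, secreted glycoproteins, both rose: Stc2 by 0.83 ± 0.11, and Stc1 from 0, 0 and 8 counts to 196, 123 and 228 counts. Hilpda, an inhibitor of lipolysis on lipid droplets, rose by 2.79 ± 0.16, while the droplet coat protein Plin2 did not pass the test (-0.21 ± 0.10), although it did without 3D Cxcl5-/- replicate 2 (-0.22, adjusted p = 0.0482).

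The genes of the surface, junctions, transport and secretion were the least uniform group, with 5 higher and 1 lower. Selenbp1, a selenium-binding methanethiol oxidase, rose by 3.99 ± 0.15, the cytokine Mif by 1.54 ± 0.13, the gap junction connexin Gja1 by 1.37 ± 0.13 and the membrane-binding annexin Anxa2 by 0.42 ± 0.08. The reads of Selenbp1 cannot be fully told apart from those of Selenbp2, which is 98.54% identical over 1712 bases. Selenbp2 held counts equal to 6.65% of those of Selenbp1 in this experiment and 5.8% in the rescue experiment. Slco4a1, an organic anion transporter, was the only member that fell, from 168, 155 and 191 CPM to 65.7, 44.9 and 57.1 CPM (-1.62 ± 0.13). Tpbg, an oncofetal surface glycoprotein, did not pass the test (-0.21 ± 0.11) but did without 2D WT replicate 2 (-0.30, adjusted p = 0.0406). With library totals Anxa2 lost the call (0.20, adjusted p = 0.0669), and Plin2 (-0.43, 0.000983) and Tpbg (-0.43, 0.00393) passed the test as lower, so that 31 members were higher and 3 were lower, where 16.7% of all genes were higher and 31.4% were lower. Per kilobase of exon, the most abundant members of 2D WT cells were Anxa2 (327 CPM per kb), Mif (240) and Plin2 (115), and those of 3D WT cells were Mif (696), Bnip3 (503), Ero1l (486) and Anxa2 (437). Of the 20 classical HIF targets that the list leaves out, such as the glycolytic enzymes, Car9 and Vegfa, 19 rose and 0 fell in the same test, with a median of 1.95. Of 9 tested genes for HIF subunits and the hydroxylases that act on them, 7 rose and 2 fell, with a median of 0.99.

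**Figure D1:**
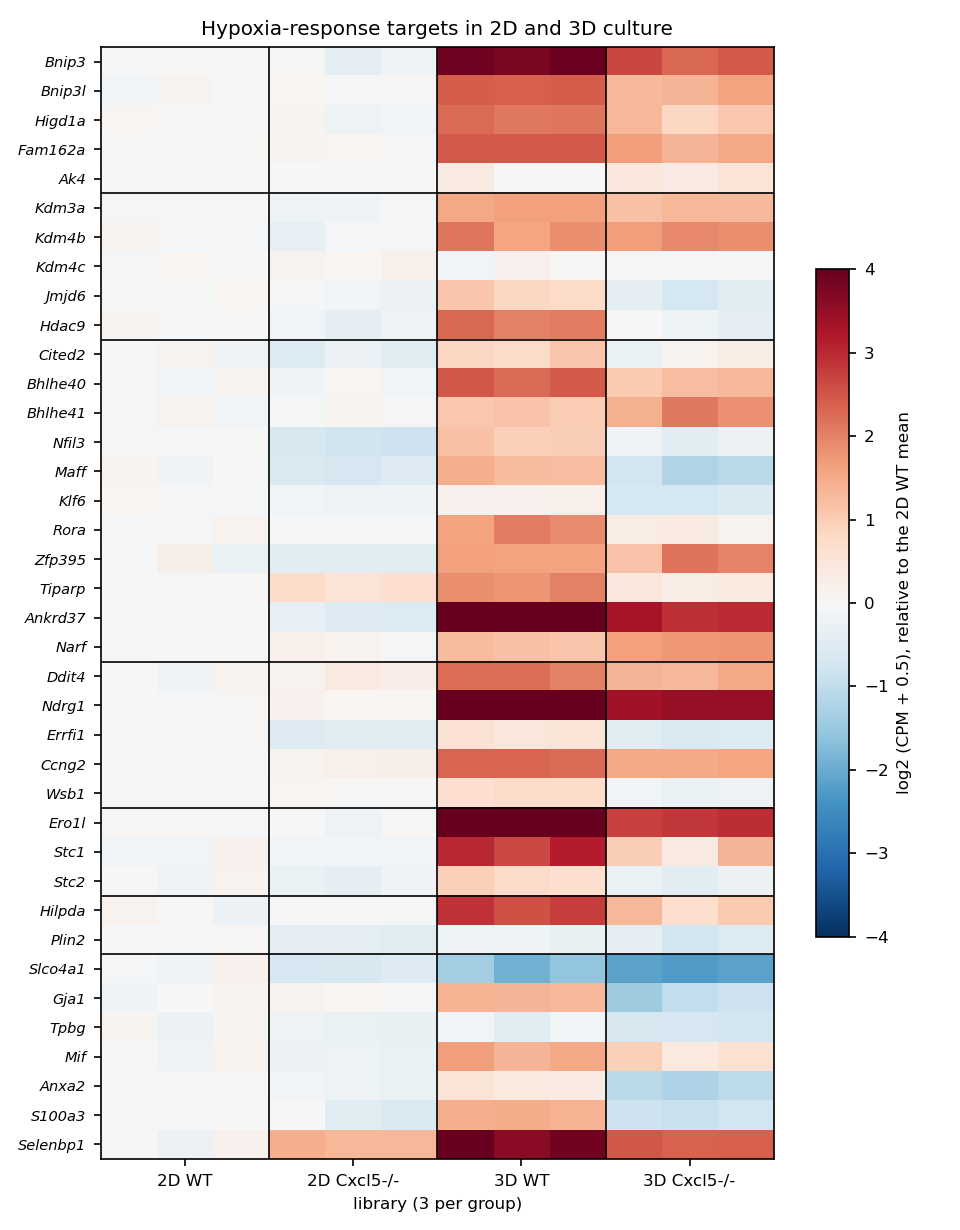
Heat map of the 38 members (rows, grouped by role) in the 12 libraries of the 2D and 3D experiment (columns, 3 per group), coloured by log2 of CPM + 0.5 relative to the 2D WT mean, with colours capped at -4 and 4. The 3D WT columns are red for most genes, the 3D Cxcl5-/- columns are paler or blue, and Slco4a1 is blue in both 3D groups.

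In 2D culture, the knockout moved fewer members than in 3D culture, though a larger share of them than of all genes. This comparison asks whether the genotypes differ before spheroids form. In 2D Cxcl5-/- cells 2 of 37 members were higher and 6 were lower than in 2D WT, where 3.86% of all genes were higher and 3.17% were lower, and the medians were -0.15 over the members and -0.015 over all genes. The epithelial markers summed to 438 to 476 CPM in 2D Cxcl5-/- and 536 to 586 CPM in 2D WT (2 of 3 tested were lower). Mesenchymal markers summed to 1713 to 1923 and 2829 to 3171 CPM, but 1 of 5 was higher and 1 lower (median 0.13). Macrophage markers summed to 6.04 to 7.87 and 1.9 to 2.72 CPM (1 of 5 tested was higher). The part of these markers in the result was not tested. The higher members were Selenbp1, at 22.0, 20.5 and 20.3 CPM against 7.97, 6.57 and 8.86 CPM (1.42 ± 0.14), and Tiparp, at 168, 143 and 156 CPM against 97.4, 95.4 and 100.4 CPM (0.67 ± 0.09). In neither gene did the groups overlap. The lower ones were Nfil3, a bZIP repressor (-0.78 ± 0.11), Maff, a small Maf factor (-0.61 ± 0.12), Slco4a1 (-0.61 ± 0.12), Ankrd37 (-0.55 ± 0.12), Errfi1 (-0.45 ± 0.07) and Plin2 (-0.41 ± 0.10). Of these, 4 lost the call without a single library: Ankrd37 (adjusted p = 0.0674 without 2D Cxcl5-/- replicate 2, 0.0809 without replicate 3 and 0.0529 without 2D WT replicate 1), Maff (0.0547 without 2D Cxcl5-/- replicate 2 and 0.0524 without 2D WT replicate 1), Slco4a1 (0.052 without 2D WT replicate 3) and Plin2 (0.059 to 0.129 without any of the 2D libraries but 2D WT replicate 2). Without 2D Cxcl5-/- replicate 2 or 2D WT replicate 1 the count was 5, and over all genes 1037 and 1057 were called in place of 1502. Ccng2 passed the test as higher with DESeq2 (0.21, adjusted p = 0.00924). Of the genes that rose most in 3D culture, Ero1l (-0.03 ± 0.09), Ndrg1 (0.11 ± 0.08) and Bnip3 (-0.16 ± 0.10) did not pass the test here, whereas Ankrd37 and Selenbp1, as given above, passed it in opposite directions.

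In 3D culture, most of the programme was lower in the knockout. The comparison asks how the edited cells differ as spheroids, and it shares its 3D WT libraries with that of 3D and 2D WT cells. In the libraries labelled 3D Cxcl5-/-, where the Cxcl5 transcript itself was higher, 32 of 37 members were lower than in 3D WT and 2 were higher, where 25.3% of all genes were lower and 19.7% were higher. The median log2 fold change was -1.10 over the members and -0.039 over all genes, and the members took 0.495% to 0.577% of the counts. With scaling by library totals the median of all genes moved to 0.35 and that of the members to -0.72, so that the gap between them was -1.07 as against -1.06. Hif1a itself fell, from 369 ± 36.0 to 160 ± 18.0 CPM (SD, n = 3; log2 fold change -1.21). Marker genes moved with the genotype as well. The 5 epithelial markers summed to 839 to 1083 CPM in 3D WT and 187 to 219 CPM in 3D Cxcl5-/- (3 of 3 tested fell). The 5 mesenchymal markers summed to 3616 to 4170 and 864 to 999 CPM (3 fell and 1 rose). The 7 macrophage markers summed to 7.81 to 9.2 and 14.7 to 23.9 CPM (1 of 5 tested rose), with Adgre1 at 0 in both. The part of these markers in the result was not tested. In bulk libraries, fewer cells that respond and a lower level per cell cannot be told apart.

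Ero1l, the member above 1 CPM in both WT cultures that 3D culture raised most, read 624, 659 and 717 CPM in 3D Cxcl5-/- against 2602, 2359 and 2740 CPM in 3D WT (-1.94 ± 0.10). Ndrg1 read 731, 800 and 800 CPM there (-1.13 ± 0.08) and Bnip3 497, 388 and 430 CPM (-1.38 ± 0.11). In each of these genes the highest knockout library stayed below the lowest WT library. All 4 tested mitochondrial genes, all 5 growth restraints, all 3 genes of oxidative folding and stanniocalcins, both lipid droplet genes and all 7 surface and secreted genes fell. Plin2 fell least among the droplet genes (-0.36 ± 0.10), and its call was lost without 3D Cxcl5-/- replicate 2 (-0.23, adjusted p = 0.077) and its sign turned with library totals (0.01). With library totals Slco4a1 (-0.18, adjusted p = 0.228) and Tpbg (-0.09, 0.492) among the surface genes and Cited2 (-0.45, 0.0561) also lost the call, and 27 members were lower and 3 were higher, where 11.4% of all genes were lower and 35.9% were higher.

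The strongest falls among genes above 1 CPM in 3D WT and 3D Cxcl5-/- cells were those of Gja1 and Maff. Gja1 read 132, 131 and 129 CPM in 3D WT and 18.5, 25.2 and 28.4 CPM in 3D Cxcl5-/- (-2.44 ± 0.13). Maff read 39.0, 34.5 and 33.5 CPM against 7.98, 5.76 and 6.35 CPM (-2.41 ± 0.13). The genotypes were far apart in both genes. Rora (-3.44 ± 0.71) and Stc1 (-2.73 ± 0.61) fell from low levels, at 57 to 78 and 123 to 228 counts in 3D WT and 5 to 10 and 11 to 58 in the knockout. Lower still in the fit were S100a3 (-4.06 ± 0.34), at 120 to 141 counts in 3D WT and 8 to 12 in the knockout, and Hdac9 (-4.66 ± 0.55), at 96 to 147 and 1 to 11 counts. S100a3 shares exon bases with another gene model on the same strand, so its counts are uncertain.

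The exceptions lay among the nuclear genes. Bhlhe41 was higher in the knockout, at 47.1, 75.7 and 62.8 CPM against 36.8, 39.1 and 35.8 CPM (0.73 ± 0.14), while its paralog Bhlhe40 was lower, at 83.8, 97.0 and 102.5 CPM against 230.4, 195.5 and 225.8 CPM (-1.20 ± 0.10). The 2 repressors thus moved in opposite directions, and in neither did the genotypes overlap. The reads of Bhlhe41 cannot be fully told apart from those of Gm43909, which lies antisense to it over 1280 exon bases and held counts equal to 7.18% of those of Bhlhe41 in this table. Narf, the nuclear prelamin A recognition factor, was also higher, at 55.7, 59.6 and 60.1 CPM against 43.2, 39.8 and 38 CPM (0.53 ± 0.09). Kdm4b (-0.06 ± 0.13), Kdm4c (-0.03 ± 0.08) and Zfp395 (0.20 ± 0.22) did not pass the test, although Zfp395 did without 3D Cxcl5-/- replicate 1 (0.43, adjusted p = 0.0354). Kdm3a fell by 0.34 ± 0.08 on the log2 scale, a direction that turned with library totals (0.06), as did that of Kdm4c (0.36). Of the classical HIF targets, 17 of 20 fell and 0 rose, with a median of -0.92. Of the HIF subunits and hydroxylases 4 fell and 2 rose, of 10 genes of the integrated stress response 8 fell and 0 rose, and of 8 immediate early genes 7 fell and 1 rose.

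**Figure D2:**
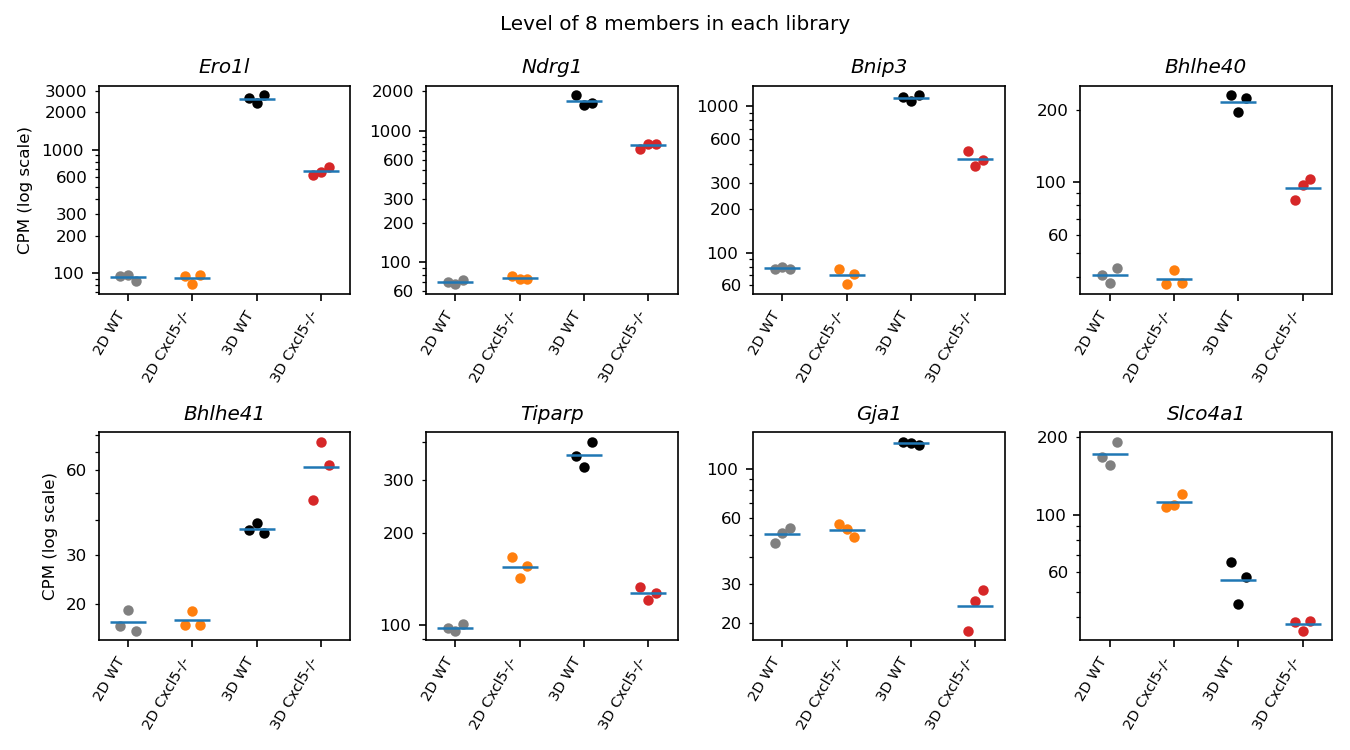
Level of 8 members in CPM (log axis, scaled per panel) in each library of the 4 groups of the 2D and 3D experiment, where points are libraries and blue lines are group means. Ero1l, Ndrg1, Bnip3 and Bhlhe40 rise in both genotypes and less in Cxcl5-/-, Bhlhe41 is highest in 3D Cxcl5-/-, Tiparp and Gja1 end below their 2D Cxcl5-/- level there, and Slco4a1 is lowest in 3D Cxcl5-/-.

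An interaction term then compared the knockout effect of spheroids with that of 2D cells. It was negative for 25 of 37 members and positive for 2, where 16.1% of all genes had a negative and 11.1% a positive interaction at an adjusted p under 0.05, and the medians were -0.96 over the members and -0.046 over all genes. Selenbp1, which was higher in 2D Cxcl5-/- and lower in 3D Cxcl5-/-, had the most negative value of a gene above 1 CPM in all groups (-2.93 ± 0.19). Gja1 (-2.51 ± 0.18), Tiparp (-2.18 ± 0.13), Ero1l (-1.91 ± 0.13) and Maff (-1.81 ± 0.18) followed. The positive values were those of Bhlhe41 (0.71 ± 0.20) and Narf (0.43 ± 0.12), and both rested on few libraries: Bhlhe41 lost the call without 2D WT replicate 2 (0.59, adjusted p = 0.0551) or 3D WT replicate 3 (0.64, 0.05), and Narf without any 2D WT library, 3D WT replicate 2 or 3, or 3D Cxcl5-/- replicate 3 (0.34 to 0.39). Mif (-0.65) and Nfil3 (-0.57) also lost the call, Mif without 2D Cxcl5-/- replicate 1 (-0.60, adjusted p = 0.0561) or 3D Cxcl5-/- replicate 2 (-0.50, 0.0588) and Nfil3 without 2D Cxcl5-/- replicate 1 (-0.46, 0.0576). Kdm3a, Kdm4b, Kdm4c, Cited2, Rora, Zfp395, Stc1, Plin2, Slco4a1 and Tpbg did not pass this test, although Zfp395 did without 3D Cxcl5-/- replicate 1 (0.93, adjusted p = 0.00499). With library totals 21 values were negative and 4 positive, against 6.36% and 21.5% of all genes: Nfil3 (-0.21), Klf6 (-0.33), Errfi1 (-0.25) and Mif (-0.29) lost the call (adjusted p of 0.0679 to 0.288), and Zfp395 (1.13, 0.0391) and Plin2 (0.40, 0.0252) passed the test as positive.

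Within the knockout, 3D culture still raised much of the programme. Against 2D Cxcl5-/-, 22 of 37 members were higher in 3D Cxcl5-/- and 10 were lower, where 28.7% of all genes were higher and 28.2% were lower. The members' median was 1.06, also with the 2 members whose 2D libraries were all at 0 set to their bounds, and that of all genes was 0.109. The epithelial markers summed to 187 to 219 CPM in 3D Cxcl5-/- against 438 to 476 CPM in 2D (2 of 3 tested fell and 1 rose). Mesenchymal markers summed to 864 to 999 against 1713 to 1923 CPM, but 2 of 5 rose and 2 fell (median 0.24). Macrophage markers summed to 14.7 to 23.9 against 6.04 to 7.87 CPM (3 of 5 tested rose). The part of these markers in the result was not tested. Ankrd37 (3.80 ± 0.12), Ndrg1 (3.36 ± 0.09), Ero1l (2.88 ± 0.10) and Bnip3 (2.65 ± 0.11) rose most among the members above 1 CPM in both groups. Stc1 was at least 11.7-fold higher and the nuclear receptor Rora at least 2.82-fold higher than a floor of 3 counts per 2D library. Ak4, not tested, held 11, 7 and 14 counts in 3D Cxcl5-/- and 0 in each 2D library, at least 3.66-fold higher by the same floor. The surface and secreted genes went the other way, with 5 lower and 2 higher: Gja1 fell from 56.0, 53.6 and 49.4 CPM in 2D to 18.5, 25.2 and 28.4 CPM in 3D (-1.14 ± 0.13), and Anxa2 from 1133, 1062 and 1023 CPM to 582, 518 and 592 CPM (-0.93 ± 0.08). Slco4a1, Tpbg and S100a3 were the other 3 that fell, while Mif (0.89 ± 0.13) and Selenbp1 (1.06 ± 0.13) rose. Jmjd6 (-0.36), Klf6 (-0.51), Maff (-0.45), Tiparp (-0.29) and Wsb1, a substrate receptor of a ubiquitin ligase (-0.24), ended below their 2D levels as well. The call was lost without 3D Cxcl5-/- replicate 2 for Jmjd6 (-0.25, adjusted p = 0.0663), Tiparp (-0.24, 0.0749) and Wsb1 (-0.20, 0.0591), without 2D Cxcl5-/- replicate 1 for Tiparp (-0.22, 0.0936) and Cited2 (0.43, 0.0649), and without 3D Cxcl5-/- replicate 3 for Cited2 (0.34, 0.107). Plin2 passed the test as lower without 3D Cxcl5-/- replicate 1 (-0.28, 0.0146). With library totals Jmjd6 (-0.21, adjusted p = 0.0867), Tiparp (-0.14, 0.162) and Wsb1 (-0.10, 0.311) lost the call, Tiparp also with DESeq2 size factors (-0.22, 0.0587).

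The rescue experiment measured the knockout effect again in other libraries. In 3D-cultured Cxcl5-/- cells 29 of 38 members were lower than in WT and 4 were higher, where 24.3% of the 28730 genes tested were lower and 17.6% were higher. The medians were -1.12 over the members and -0.296 over all genes. The WT libraries here are those with many more genes detected, and the median of all genes stood below 0 beside it. The epithelial markers summed to 821 to 864 CPM in WT and 257 to 270 CPM in Cxcl5-/- (3 of 4 tested fell). Mesenchymal markers summed to 3390 to 3416 and 753 to 771 CPM, but 1 of 5 fell and 2 rose (median -0.38). Endothelial markers summed to 1.65 to 3.17 and 0 to 0.0406 CPM (3 of 3 fell, with Cdh5 and Kdr at 0 in Cxcl5-/-). Macrophage markers summed to 15.3 to 15.8 and 14.9 to 15.8 CPM (3 of 6 tested fell and 1 rose). The part of these markers in the result was not tested. No library is shared with the 2D and 3D experiment, although both used Cxcl5-/- cells, and the tables were scaled separately. Of 37 members tested in both experiments, 34 (91.9%) had the same direction, as did 76.5% of 21058 genes tested in both; 29 members were lower in both, 2 were higher in both and 0 were called in opposite directions, against 3212, 2918 and 262 of the 21058 genes. Across these 37 genes, which are not independent replicates, the log2 fold changes of the experiments had a Pearson r of 0.76 and a Spearman rho of 0.82, against 0.59 and 0.67 across all 21058 genes.

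**Figure D3:**
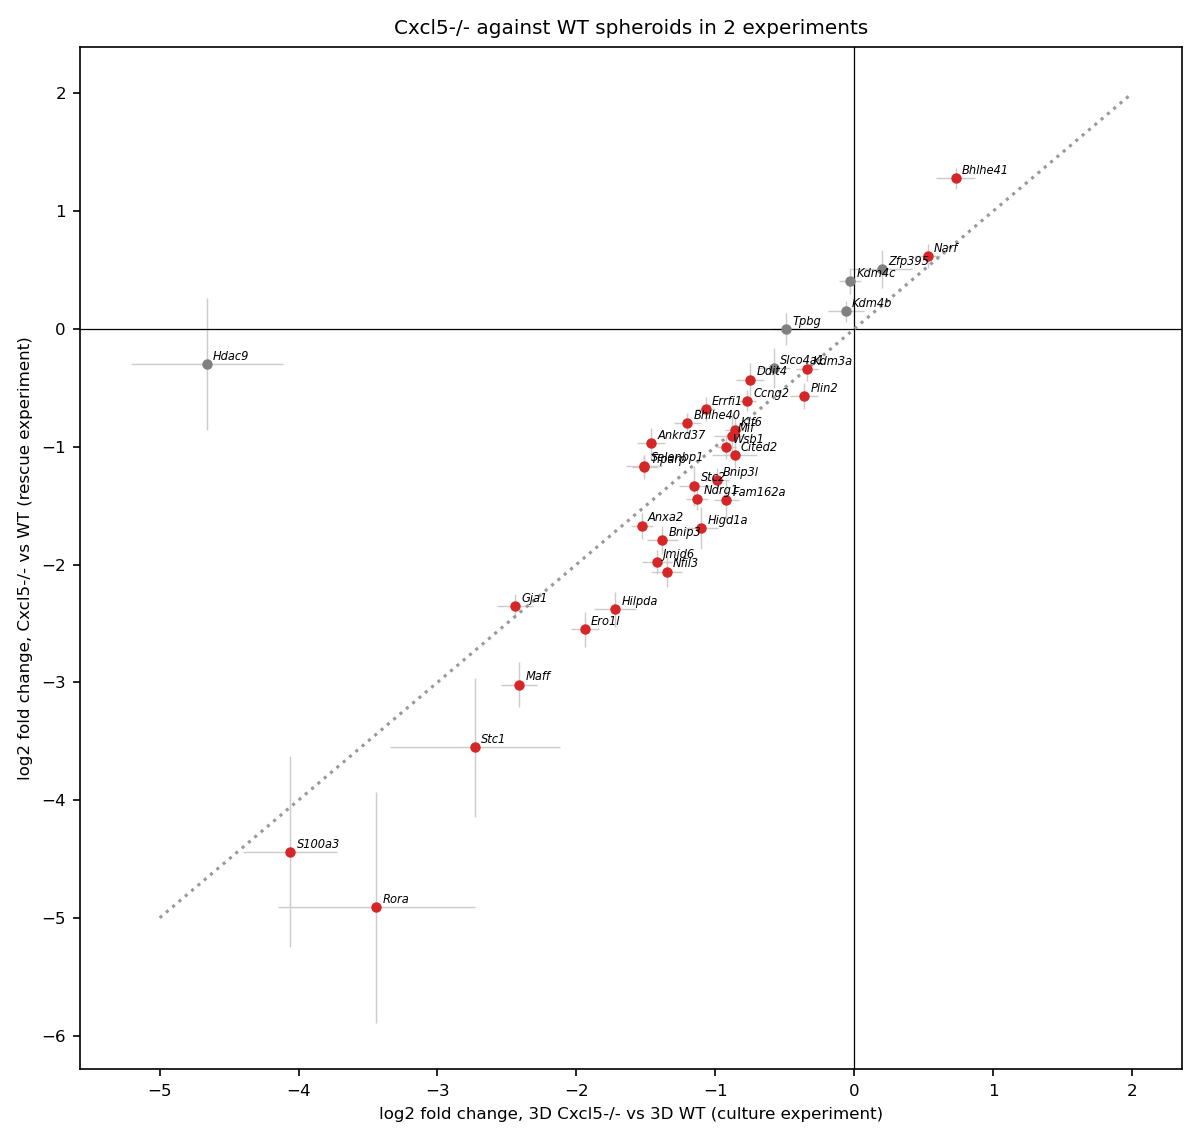
Log2 fold change of Cxcl5-/- against WT spheroids in the 2D and 3D experiment (x axis) and in the rescue experiment (y axis) for 37 members, with SE bars, where red points passed the test in both and the dotted line marks equal values. Most points lie in the lower left quadrant, Bhlhe41 and Narf are red in the upper right, and Hdac9 lies apart at -4.66 and -0.30.

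Ero1l read 394 and 383 CPM in rescue Cxcl5-/- against 2206 and 2330 CPM in WT (-2.55 ± 0.15). Hilpda read 14.5 and 13.6 CPM against 73.3 and 73.3 CPM (-2.38 ± 0.15), Gja1 24.9 and 24.3 CPM against 117 and 134 CPM (-2.35 ± 0.10) and Maff 6.45 and 4.53 CPM against 44.0 and 45.0 CPM (-3.02 ± 0.19). The genotypes were far apart in each. Bhlhe41 was again the member with the largest rise, at 117 and 108 CPM against 49.1 and 43.7 CPM (1.28 ± 0.09), beside a fall of Bhlhe40 (-0.80 ± 0.09). Narf (0.62 ± 0.10), Zfp395 (0.51 ± 0.16) and Kdm4c (0.41 ± 0.11) were the other 3 that rose. Hdac9 did not pass the test here (-0.30 ± 0.56), nor did Ak4, Kdm4b, Slco4a1 and Tpbg, although Ak4 did without Cxcl5-/- replicate 1 (adjusted p = 0.0185) and Slco4a1 without Hif1αOE Cxcl5-/- replicate 2 (-0.34, 0.0179). With DESeq2 Ak4 (-3.08, adjusted p = 0.0165) and Slco4a1 (-0.43, 0.0443) passed and Zfp395 did not (0.41, 0.0563), and Kdm3a lost the call with library totals (-0.30, 0.0926). With 2 libraries per genotype, 4 calls were lost without a single library: Ddit4 (adjusted p = 0.191 without Cxcl5-/- replicate 1, 0.0606 without Cxcl5-/- replicate 2 and 0.174 without WT replicate 1), Kdm3a (0.168 without Cxcl5-/- replicate 2, 0.0857 and 0.0797 without WT replicates 1 and 2), and Kdm4c (0.0579 to 0.0917) and Zfp395 (0.0541 to 0.146) without any of the 4. Of the classical HIF targets 19 of 20 fell, with a median of -1.34. Of the HIF subunits and hydroxylases 5 of 10 fell and 3 rose, of the integrated stress response 9 fell and 1 rose, and of the immediate early genes 3 fell and 2 rose.

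Most members were higher in the Hif1αOE line than in its Cxcl5-/- parent. This comparison asks which of these genes differ between the lines as spheroids. No library came from Cxcl5-/- cells with an empty vector, so the mutant factor cannot be told apart from the vector or the selection of the line. Against Cxcl5-/-, 26 of 38 members were higher in Hif1αOE Cxcl5-/- and 5 were lower, where 20.5% of all genes were higher and 15.0% were lower, and the medians were 0.72 over the members and 0.157 over all genes. The epithelial markers summed to 257 to 270 CPM in Cxcl5-/- and 659 to 781 CPM in Hif1αOE Cxcl5-/- (3 of 4 tested rose), the mesenchymal markers to 753 to 771 and 851 to 936 CPM (1 of 5 rose and 2 fell), and the macrophage markers to 14.9 to 15.8 and 20.3 to 26.1 CPM (1 of 6 tested rose), with Adgre1 at 0 in both. The endothelial markers summed to at most 0.0406 CPM in Cxcl5-/- and to 0.199 to 0.979 CPM in Hif1αOE Cxcl5-/- (1 of 3 rose). Their part in the result was not tested. Selenbp1 rose most among genes above 1 CPM, from 16.6 and 16.6 CPM to 106, 108 and 104 CPM (2.68 ± 0.09). Hilpda went from 14.5 and 13.6 CPM to 56.9, 74.2 and 53.0 CPM (2.13 ± 0.15), and Slco4a1, which 3D culture lowers, from 22.1 and 22.7 CPM to 59.5, 93.1 and 69.3 CPM (1.72 ± 0.16). None of these groups overlapped. Higd1a (1.52 ± 0.17), Maff (1.50 ± 0.17), Jmjd6 (1.39 ± 0.10) and Anxa2 (1.29 ± 0.10) rose too, as did all 7 surface and secreted genes and both lipid droplet genes.

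Several members that 3D culture raises did not pass the test under mutant Hif1α. Ndrg1 read 777, 814 and 716 CPM against 693 and 644 CPM (0.20 ± 0.09, adjusted p = 0.117), so that the groups did not overlap but the difference did not pass the test, and WT spheroids held 1875 and 1751 CPM. Bhlhe40 (0.22 ± 0.08), Kdm3a (0.18 ± 0.09), Kdm4b (-0.08 ± 0.08), Stc1 (0.27 ± 0.56), Hdac9 (0.22 ± 0.51) and Ak4 (1.25 ± 1.11) did not pass the test either, although Bhlhe40 did with DESeq2 (0.17, adjusted p = 0.0386) and without MycOE Cxcl5-/- replicate 1 (0.22, 0.0389). The members that fell were Bhlhe41, from 117 and 108 CPM to 42.9, 44.1 and 46.4 CPM (-1.34 ± 0.08), Errfi1 (-0.76 ± 0.09), Zfp395 (-0.59 ± 0.14), Narf (-0.35 ± 0.09) and Kdm4c (-0.35 ± 0.10). This comparison and that of Cxcl5-/- with WT use the same 2 Cxcl5-/- libraries, so that a deviation of these libraries moves both in opposite directions.

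The smaller of these calls depended on the scaling or on single libraries. With library totals 21 members were higher and 5 lower, against 15.1% and 19.5% of all genes, as the call was lost for Klf6 (0.07), Tiparp (0.18), Ddit4 (0.18), Ccng2 (0.16) and Wsb1 (0.12), and that of Klf6 was lost with DESeq2 size factors as well (0.25, adjusted p = 0.0645). Without Cxcl5-/- replicate 1 the call was lost for Ddit4 (0.33), Kdm4c (-0.36), Klf6 (0.30), Narf (-0.34), S100a3 (2.97), Wsb1 (0.32) and Zfp395 (-0.50). Without Cxcl5-/- replicate 2 it was lost for Ccng2 (0.34), Ddit4 (0.52), Kdm4c (-0.31), Klf6 (0.31), Narf (-0.33), Rora (1.98) and Tiparp (0.40). Without Hif1αOE Cxcl5-/- replicate 1 it was lost for Kdm4c (-0.32) and Klf6 (0.22), without replicate 2 for Ddit4 (0.30), Kdm4c (-0.32) and Rora (2.39), and without replicate 3 for Klf6 (0.29). The calls of the members other than these 10 held without each of the 10 libraries in turn.

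Most members were also higher in the MycOE line than in its Cxcl5-/- parent. Here too Myc cannot be told apart from the vector or the selection of the line. Against Cxcl5-/-, 24 of 38 members were higher in MycOE Cxcl5-/- and 6 were lower, where 21.6% of all genes were higher and 18.0% were lower, and the medians were 0.81 over the members and 0.106 over all genes. In these libraries the epithelial markers summed to 240 to 284 CPM (1 of 4 tested rose against Cxcl5-/-). Mesenchymal markers summed to 1137 to 1196 CPM, but 1 of 5 rose and 2 fell (median -1.28). Macrophage markers summed to 16.3 to 24 CPM (1 of 6 tested rose and 1 fell). Endothelial markers summed to 0.282 to 0.508 CPM (1 of 3 rose). The part of these markers in the result was not tested. Hif1a read 241 to 271 CPM in the MycOE Cxcl5-/- libraries against 134 and 144 CPM in Cxcl5-/- (log2 fold change 0.90). Selenbp1 rose to 105, 89.4 and 98.7 CPM (2.56 ± 0.09) and Hilpda to 62.6, 60.4 and 52.7 CPM (2.06 ± 0.15), both well above each Cxcl5-/- library. Higd1a (1.79 ± 0.17), Fam162a (1.61 ± 0.17), Jmjd6 (1.58 ± 0.10), Mif (1.55 ± 0.18), Bnip3 (1.40 ± 0.11), Ankrd37 (1.37 ± 0.12) and Ero1l (1.25 ± 0.13) rose as well. Ndrg1, unlike under mutant Hif1α, passed the test, at 1062, 1159 and 1084 CPM (0.72 ± 0.09).

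The 6 members lower than in Cxcl5-/- were Errfi1 (-0.93 ± 0.09), Bhlhe41 (-0.74 ± 0.08), Klf6 (-0.55 ± 0.09), Kdm4c (-0.47 ± 0.10), Narf (-0.45 ± 0.09) and Tpbg (-0.37 ± 0.13). Tiparp (-0.06 ± 0.09), Bhlhe40 (-0.02 ± 0.08) and Kdm3a (0.04 ± 0.09) did not pass the test. Wsb1 (0.23 ± 0.09) and Zfp395 (-0.37 ± 0.14) missed it too, but Wsb1 passed without MycOE Cxcl5-/- replicate 1 (0.30, adjusted p = 0.0252), Zfp395 without MycOE Cxcl5-/- replicate 2 (-0.47, 0.0262) or Hif1αOE Cxcl5-/- replicate 2 (-0.37, 0.0432), and Ak4 without Cxcl5-/- replicate 1 (adjusted p = 0.017). With DESeq2 Ak4 (adjusted p = 0.0204) and Zfp395 (-0.40, 0.0386) passed too. With library totals 20 members were higher and 10 lower, against 14.9% and 26.0% of all genes: Maff (0.41), Ccng2 (0.14), Plin2 (0.09) and S100a3 (2.04) lost the call, and Kdm4b (-0.31), Bhlhe40 (-0.35), Zfp395 (-0.71) and Tiparp (-0.39) passed the test as lower. The call was lost for Plin2 (0.38, adjusted p = 0.066) and S100a3 (2.13, 0.165) without Cxcl5-/- replicate 1, for Maff (0.53, 0.0541), Rora (2.32, 0.0957) and S100a3 (2.67, 0.103) without replicate 2, for S100a3 without MycOE Cxcl5-/- replicate 2 (1.39, 0.101), and for Tpbg without any of 7 libraries (-0.30 to -0.40), namely both Cxcl5-/- and both WT libraries, MycOE Cxcl5-/- replicates 2 and 3 and Hif1αOE Cxcl5-/- replicate 3. Of the classical HIF targets, 15 of 20 rose with mutant Hif1α and 17 of 20 with Myc, and 0 fell in either. Of the integrated stress response 8 of 10 rose and 1 fell in each line, of the HIF subunits and hydroxylases 4 rose and 3 fell with mutant Hif1α and 5 rose and 2 fell with Myc, and of the immediate early genes 2 rose and 3 fell with mutant Hif1α and 4 rose and 3 fell with Myc. The overexpression comparisons share their Cxcl5-/- libraries, so their values are given side by side only.

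**Figure D4:**
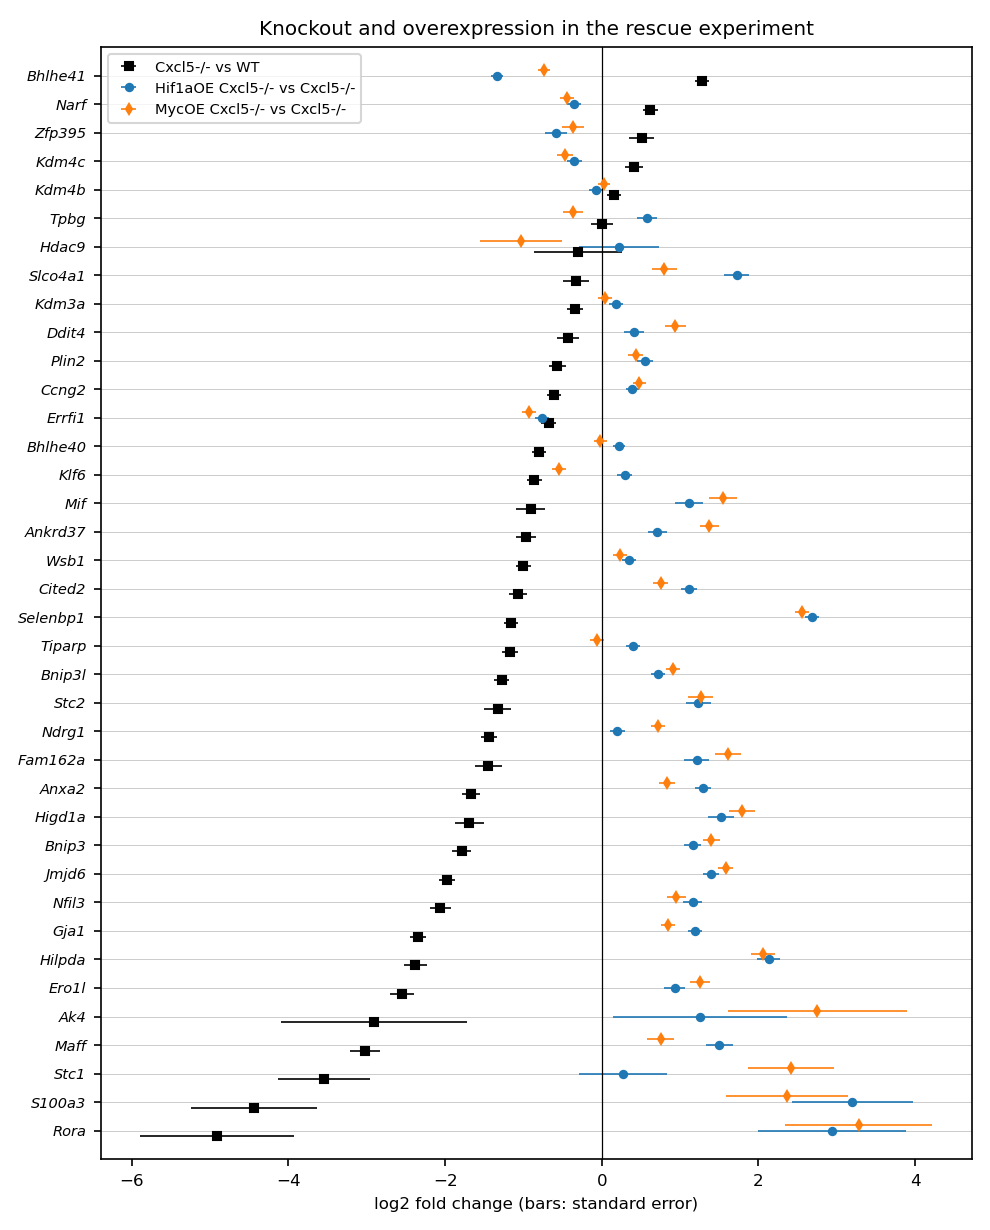
Log2 fold changes with SE bars for the 38 members (rows, ordered by the knockout effect) in the rescue experiment, for Cxcl5-/- against WT (black squares), Hif1αOE Cxcl5-/- against Cxcl5-/- (blue circles) and MycOE Cxcl5-/- against Cxcl5-/- (orange diamonds). All 3 comparisons use the same Cxcl5-/- libraries. Most genes have a black square left of 0 and coloured points right of it, Bhlhe41 the reverse, and Errfi1 is left of 0 in all 3.

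The overexpressing lines were then compared directly. In MycOE Cxcl5-/- 5 of 38 members were higher and 9 were lower than in Hif1αOE Cxcl5-/-, where 9.54% of all genes were higher and 9.73% were lower, and the medians were -0.08 and -0.015. The balance depended on the test: with DESeq2 11 members were higher and 9 were lower, against 12.6% and 11.9% of all genes, and with library totals 5 were higher and 11 were lower, against 6.90% and 12.2%. The classical HIF targets leaned toward Myc, with 10 of 20 higher and 2 lower (median 0.29). The epithelial markers summed to 240 to 284 CPM with Myc and 659 to 781 CPM with mutant Hif1α. Of these, 2 of 4 tested were lower with Myc. The mesenchymal markers summed to 1137 to 1196 and 851 to 936 CPM (2 of 5 higher and 1 lower). The macrophage markers summed to 16.3 to 24 and 20.3 to 26.1 CPM (1 of 6 tested lower). The endothelial markers summed to 0.282 to 0.508 and 0.199 to 0.979 CPM (0 of 3 higher and 1 lower). The part of these markers in the result was not tested. Higher with Myc were Stc1 (2.15 ± 0.46, at 35 to 61 against 5 to 17 counts), Ankrd37 (0.66 ± 0.10), Bhlhe41 (0.60 ± 0.08), Ddit4 (0.53 ± 0.12) and Ndrg1 (0.52 ± 0.08). Higher with mutant Hif1α were Tpbg (-0.95 ± 0.12), Slco4a1 (-0.92 ± 0.14), Klf6 (-0.84 ± 0.08), Maff (-0.75 ± 0.14), Anxa2 (-0.46 ± 0.09), Tiparp (-0.46 ± 0.08), Cited2, a competitor of HIF for its coactivators (-0.36 ± 0.09), Gja1 (-0.34 ± 0.08) and Bhlhe40 (-0.23 ± 0.07, adjusted p = 0.0441). Bhlhe40 lost the call without any library of the table (-0.18 to -0.26), and Cited2 without Hif1αOE Cxcl5-/- replicate 3 (-0.29, 0.0546) or MycOE Cxcl5-/- replicate 2 (-0.34, 0.0578). The 6 further members that DESeq2 called higher with Myc were Bnip3 (0.26, adjusted p = 0.00695), Bnip3l (0.20, 0.0223), Fam162a (0.42, 0.0135), Jmjd6 (0.20, 0.0473), Ero1l (0.33, 0.0124) and Mif (0.46, 0.0126), and the 2 further ones lower with Myc under library totals were Errfi1 (-0.29, 0.0496) and Plin2 (-0.23, 0.0463). The median turned to 0.01 without Hif1αOE Cxcl5-/- replicate 2, in which Fam162a (323 CPM against 238 and 210 CPM), Mif and Higd1a stood above the other libraries of its group. Without it Mif (0.66, adjusted p = 0.00293), Fam162a (0.60, 0.00158), Higd1a (0.48, 0.00332) and Bnip3 (0.33, 0.0144) also passed the test as higher with Myc. Ero1l did so without MycOE Cxcl5-/- replicate 1 (0.42, 0.016) and Mif without replicate 3 (0.57, 0.0312), and S100a3 was lower with Myc without replicate 2 (-1.81, 0.0306).

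Against WT spheroids, both lines still differed. In Hif1αOE Cxcl5-/- 15 members were lower than in WT and 4 were higher, where 10.3% of all genes were lower and 13.9% were higher (medians -0.26 and -0.096). In MycOE Cxcl5-/- 18 were lower and 6 were higher, where 14.7% were lower and 17.1% were higher (medians -0.35 and -0.172); without WT replicate 1 or replicate 2 that count of 24 was 14, and that over all genes was 4926 and 4954 in place of 9128. These splits moved with the scaling and the test. With mutant Hif1α the members' median of -0.26 was -0.43 without Hif1αOE Cxcl5-/- replicate 2, -0.40 with DESeq2 and -0.45 with library totals, and with Myc that of -0.35 was -0.64 with library totals. With library totals 21 were lower and 3 higher in Hif1αOE Cxcl5-/- (12.5% and 7.69% of all genes) and 23 lower and 1 higher in MycOE Cxcl5-/- (21.6% and 8.62%). With DESeq2 20 were lower and 3 higher in the former (13.6% and 10.5%) and 24 lower and 4 higher in the latter (17.0% and 13.9%). Of the classical HIF targets 14 of 20 were lower and 0 higher with mutant Hif1α (median -0.51), and 9 were lower and 3 higher with Myc (median -0.18). Marker genes moved with these contrasts too, and the WT libraries are those with many more genes detected. The epithelial markers, at 821 to 864 CPM in WT, summed to 659 to 781 CPM with mutant Hif1α (1 of 4 tested lower) and 240 to 284 CPM with Myc (4 of 4 lower). The mesenchymal markers, at 3390 to 3416 CPM in WT, summed to 851 to 936 CPM (1 of 5 lower and 1 higher) and 1137 to 1196 CPM (3 lower and 1 higher). The macrophage markers, at 15.3 to 15.8 CPM in WT, summed to 20.3 to 26.1 CPM (2 of 6 tested lower and 2 higher) and 16.3 to 24 CPM (1 lower and 1 higher), and the endothelial markers, at 1.65 to 3.17 CPM in WT, to 0.199 to 0.979 CPM (0 of 3 called) and 0.282 to 0.508 CPM (1 of 3 lower). Their part in the result was not tested. With Myc the higher calls of Bhlhe41 (0.25), Ankrd37 (0.11), Ddit4 (0.21), Slco4a1 (0.17) and Mif (0.34) were lost under library totals, and those of Ankrd37 (0.27) and Slco4a1 (0.34) under DESeq2. With mutant Hif1α that of Narf was lost under both (0.09 and 0.13). Ero1l stayed below WT in both lines (-1.61 ± 0.12 and -1.30 ± 0.12), as did Ndrg1 (-1.24 ± 0.09 and -0.72 ± 0.09), Errfi1 (-1.43 ± 0.09 and -1.61 ± 0.09), Maff (-1.52 ± 0.15 and -2.27 ± 0.16), Gja1 (-1.16 ± 0.09 and -1.50 ± 0.09) and Nfil3 (-0.90 ± 0.11 and -1.11 ± 0.11). Selenbp1 ended above WT, which held 38.4 and 35.6 CPM, in both (1.52 ± 0.09 and 1.40 ± 0.09), and so did Slco4a1 (1.39 ± 0.16 and 0.47 ± 0.15), in the MycOE line with a call that was lost without either WT library (0.44 and 0.52) or any MycOE library (0.41 to 0.49). Hilpda (-0.26 ± 0.13 and -0.32 ± 0.13), Higd1a (-0.17 ± 0.16 and 0.10 ± 0.16), Fam162a (-0.23 ± 0.16 and 0.17 ± 0.16) and Stc2 (-0.10 ± 0.15 and -0.07 ± 0.15) did not pass edgeR's test against WT in either line. Hilpda was lower than WT in both lines, however, with DESeq2 (-0.40 and -0.45, adjusted p = 0.0237 and 0.00711), with its size factors (0.0441 and 0.0213) and with library totals (-0.45 and -0.62, 0.00809 and 0.000683). Library totals also put Higd1a (-0.37, 0.0481) and Fam162a (-0.43, 0.0258) below WT with mutant Hif1α. The other members that DESeq2 added as lower were Kdm3a, Rora, Ankrd37 and Ccng2 with mutant Hif1α (adjusted p of 4.38e-06 to 0.0151) and Hdac9, Rora, Ccng2, Stc1 and Plin2 with Myc (0.00126 to 0.0494). Without Hif1αOE Cxcl5-/- replicate 2, Fam162a (-0.44, adjusted p = 0.0152), Hilpda (-0.42, 0.0115), Higd1a (-0.39, 0.0183), Ankrd37 (-0.38, 0.0179) and Rora (-2.53, 0.0437) were lower than WT with mutant Hif1α, and Hilpda (-0.33, 0.0153) also with Myc. Rora was lower too without Cxcl5-/- replicate 1 (-1.96, 0.0343) or 2 (-1.96, 0.0336), and Stc1 with Myc without Hif1αOE Cxcl5-/- replicate 1 (-1.13, 0.0499) or 3 (-1.13, 0.0462). With mutant Hif1α the call against WT was lost for Anxa2 without WT replicate 1 or 2 (-0.38 and -0.37), for Tpbg without WT replicate 1 (0.57) and for Narf without any library other than Hif1αOE Cxcl5-/- replicate 3 (0.22 to 0.30). With Myc it was lost without at least 1 library for 11 members, each of which kept its sign: without WT replicate 1 or 2 for Bnip3, Bnip3l, Kdm3a, Cited2, Ankrd37, Slco4a1, Tpbg, Mif and S100a3 (adjusted p of 0.0585 to 0.336), without WT replicate 1 for Jmjd6 (0.0862), without WT replicate 2 for Ddit4 (0.116), and without 1 of the other libraries for Kdm3a, Cited2, Ankrd37, Ddit4, Slco4a1, Tpbg, Mif and S100a3 (0.0505 to 0.125).

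No member passed the test in the comparisons of conditioned media, where few genes of any kind did. In this experiment a call also needed an absolute log2 fold change above 1. Of 35 tested members 0 were called in M1-CM against Ctrl, where 0.0156% of 19207 genes were higher and 0% were lower; 0 in M1-CM against M0-CM, where 0.0156% were higher and 0% were lower; and 0 in M0-CM against Ctrl, where 0% were higher and 0% were lower. DESeq2 also called 0 in each comparison. At an unadjusted p under 0.05, 2 members were higher and 1 was lower in M1-CM against Ctrl, where 3.05% of all genes were higher and 1.65% were lower. By the same cut-off 0 were higher and 1 was lower in M1-CM against M0-CM (1.61% and 0.984% of all genes), and 5 were higher and 0 lower in M0-CM against Ctrl (2.15% and 0.817%). The members' medians were 0.23, -0.25 and 0.39 and those of all genes 0.015, -0.007 and -0.003, and both contrasts with Ctrl share its libraries. By sign alone, 25 of 35 members were higher in M1-CM than in Ctrl, 9 in M1-CM than in M0-CM and 32 in M0-CM than in Ctrl. Of the 19207 genes, 9937, 9442 and 9481 were higher in the same order. Of the 20 classical HIF targets 17, 2 and 20 were higher, with medians of 0.3, -0.32 and 0.63, and 0 were called.

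The spread among Ctrl libraries was wide for these genes. Ndrg1 read 1421, 280 and 1087 CPM in Ctrl, 1596, 1433 and 1681 CPM in M0-CM and 985, 1246 and 1240 CPM in M1-CM. Ero1l read 1081, 211 and 787 CPM, 1421, 1047 and 1454 CPM, and 664, 971 and 1074 CPM in the same order, and Bnip3 read 754, 271 and 731 CPM, 864, 1071 and 1105 CPM, and 662, 512 and 864 CPM. Ctrl replicate 2 was the lowest of its group in all 3 genes and lay below all 6 libraries with conditioned medium. It was the lowest Ctrl library for 29 of 35 members (82.9%), against 40.6% of all genes, and for 19 of the 20 classical HIF targets. The members took 0.407% of its counts and 0.806% and 0.713% of those of the other Ctrl libraries. Without this library the members' median for M1-CM against Ctrl was -0.04 in place of 0.23, and that for M0-CM against Ctrl 0.21 in place of 0.39. The median for M1-CM against Ctrl was 0 without M1-CM replicate 3 and 0.36 without Ctrl replicate 3. Stc2 had the smallest p of the members over these comparisons, at 12.4, 13.9 and 18.6 CPM in Ctrl and 20.7, 27.7 and 29.7 CPM in M1-CM (0.80 ± 0.22, adjusted p = 0.755); its groups did not overlap, and the difference did not pass the test. Gja1 was next, at 35.8, 28.4 and 28.1 CPM in Ctrl, 40.1, 42.5 and 39.6 CPM in M0-CM and 38.5, 44.5 and 42.5 CPM in M1-CM (0.44 ± 0.14 in M1-CM and 0.41 ± 0.14 in M0-CM against Ctrl, adjusted p = 0.965 and 1).

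**Figure D5:**
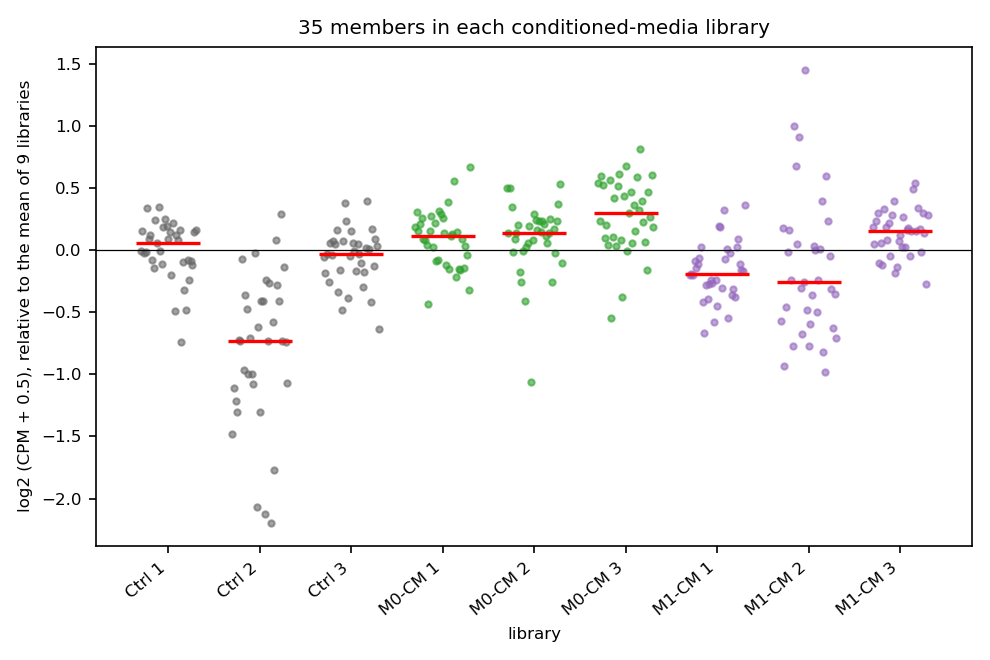
Log2 of CPM + 0.5 relative to the mean of the 9 libraries for the 35 tested members (points) in each conditioned-media library, with the median of each library as a red line. The median of Ctrl replicate 2 lies below those of the other 8 libraries, and its points are widely spread.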

How the data were processed

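Stranded total RNA libraries were sequenced as read pairs by a sequencing service provider. Per the labels and the study's methods, the reads were aligned with HISAT2 to the mouse genome (GRCm38, mm10) and counted per gene with StringTie, and the authors deposited the counts without normalisation, as whole numbers, in 3 tables. Versions, the annotation release and whether the counting used strand are not given in the sources used here. Samples were grouped by their labels.

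Each table was analysed separately with edgeR 4.0.16 in R 4.3.3: genes passing filterByExpr were kept, libraries were scaled by TMM, all groups of a table were fitted together by quasi-likelihood, and p-values were adjusted by the Benjamini-Hochberg method over all genes tested. A call needed an adjusted p under 0.05, to which the conditioned-media table added a log2 fold change beyond 1 or -1. The fit was also run on simulated data, whose outcome is not given here and on which no result above rests. Values are not comparable between tables. The 38 genes, their role groups and the other lists (classical HIF targets, HIF subunits and hydroxylases, integrated stress response, immediate early genes, cell type markers) were chosen with earlier results of these data known. All 38 genes are accounted for. Values in every library were given for some genes with large changes and for some that went against their role group. Other genes have fold changes or ranges only. Where a symbol had several entries, the entry with the most counts was used. Replicate libraries differed by more than sampling noise in each group. Alternatives were DESeq2 1.42.0, DESeq2 size factors or library totals for scaling, other filters on low counts, a replicate block, other thresholds and leaving out each library. Of the members, 11 have a near-identical transcript of another gene, with at least 95% identity over at least 200 bases, whose counts were at most 10.6% of their own except for Ak4. A further limit is that 14 share exon bases with an antisense gene and 2, Jmjd6 and S100a3, with a gene on the same strand. Ankrd37, of 1539 exon bases, is among the 14 and shares 349 with Lrp2bp and 57 with Ufsp2.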

Additional observations from a re-analysis of the deposited data

Results flagged for a closer look

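For 27 members the effect of 3D culture differed between Cxcl5-/- and WT cells by the interaction term of edgeR's quasi-likelihood test, at an adjusted p under 0.05, 25 with a negative and 2 with a positive value, where 16.1% of all genes had a negative and 11.1% a positive one. The values are the log2 fold change from 2D to 3D in Cxcl5-/- cells less that in WT cells. In this experiment the spheroid libraries labelled Cxcl5-/- held more of the Cxcl5 transcript than those of WT.

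Among the mitochondrial genes the differences were -1.22 for Bnip3, -1.02 for Bnip3l, -1.03 for Higd1a and -0.96 for Fam162a. Among the chromatin enzymes they were -1.28 for Jmjd6 and -3.79 for Hdac9, the latter from few counts. Among the transcription factors and nuclear genes, Bhlhe40 (-1.15), Nfil3 (-0.57), Maff (-1.81), Klf6 (-0.70), Tiparp (-2.18) and Ankrd37 (-0.91) were negative, and Bhlhe41 (0.71) and Narf (0.43) were positive. The growth restraints were all negative, at -1.02 for Ddit4, -1.23 for Ndrg1, -0.62 for Errfi1, -0.96 for Ccng2 and -0.97 for Wsb1. So were Ero1l (-1.91) and Stc2 (-0.88), and Hilpda (-1.69). Of the surface and secreted genes, Gja1 differed by -2.51, Mif by -0.65, Anxa2 by -1.34, S100a3 by -3.49 and Selenbp1 by -2.93.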

How the results depend on the processing

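With an absolute log2 fold change above 1 required as well, the members called, with the share of all genes called in parentheses, numbered 1 for 2D Cxcl5-/- against 2D WT (3.12%), 20 for 3D Cxcl5-/- against 3D WT (17.6%), 16 for the interaction (11.4%), 21 for Cxcl5-/- against WT in the rescue experiment (25.5%), 17 for Hif1αOE (18.0%) and 13 for MycOE (22.2%) against Cxcl5-/-, 1 for MycOE against Hif1αOE (6.88%), and 8 for Hif1αOE (9.64%) and 9 for MycOE (15.5%) against WT, of 37 members tested in the 2D and 3D experiment and 38 in the rescue experiment. Without single libraries the count ranged from 5 to 8 for 2D Cxcl5-/- against 2D WT and from 14 to 25 for MycOE against WT (over all genes from 1029 to 1725 and from 4926 to 9845), and the median for MycOE against Hif1αOE from -0.10 to 0.01. Library totals turned the sign of Klf6 in 3D WT against 2D WT (-0.03), of Kdm3a (0.06), Kdm4c (0.36) and Plin2 (0.01) in 3D Cxcl5-/- against 3D WT, and of Kdm4b in MycOE against Cxcl5-/- (-0.31); the cause was not tested. Totals also moved the share of higher genes among all calls, from 50.2% to 34.7% for 3D WT against 2D WT, from 43.9% to 75.8% for 3D Cxcl5-/- against 3D WT, from 40.9% to 77.1% for the interaction, from 57.8% to 43.6% for Hif1αOE and from 54.6% to 36.3% for MycOE against Cxcl5-/-, from 49.5% to 36.1% between these, and against WT from 57.5% to 38.1% for Hif1αOE (43.5% with DESeq2, 40.5% with its size factors) and from 53.7% to 28.5% for MycOE (42.2% with size factors). The members' median went with totals from -0.96 to -0.60 for the interaction, from 0.81 to 0.48 for MycOE against Cxcl5-/- and from -0.08 to -0.19 for MycOE against Hif1αOE, while that of all genes went from -0.05 to 0.32, from 0.11 to -0.11 and from -0.01 to -0.13. Over all genes, DESeq2 called 74, 25 and 17 in M1-CM against Ctrl, M1-CM against M0-CM and M0-CM against Ctrl, in place of 3, 3 and 0. The total of members called in a comparison stayed within 1.5 times of the reported one under DESeq2, the other scalings and the other filters, but counts in 1 direction moved further. Higher in MycOE than in Hif1αOE were 11 with DESeq2 and 8 with a mean count of at least 10, in place of 5. With library totals 1 was higher in MycOE than in WT in place of 6, 10 were lower in MycOE than in Cxcl5-/- in place of 6, 4 interactions were positive in place of 2, and 3 were lower in 3D WT than in 2D WT in place of 1. Same-numbered libraries correlated by 0.0369, 0.0247 and 0.00408 on average in the 3 tables, so the numbers were not taken to pair them. In the conditioned-media table the values ranged from -0.236 to 0.359, with 3 of 9 pairs over 0.1, so the average does not settle the pairing there. With the replicate block 0 members were called in each comparison of that table, against 1, 1 and 0 of all genes. The block gave 33, 8, 34, 27 and 32 calls in the 2D and 3D experiment and 33, 30, 29, 16, 19 and 23 in the rescue experiment, in the order of the report (over all genes 9542, 1554, 9735, 6020 and 12125, and 10803, 10224, 11210, 5831, 6225 and 8007). For MycOE against Hif1αOE 8 were then higher and 8 lower in place of 5 and 9. The rescue WT and Cxcl5-/- groups hold 2 libraries each, so that leaving 1 out assumes that the other varies like the remaining groups. Ak4, Rora, Stc1, Hdac9 and S100a3 rest on few counts.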
